A study of Mus musculus with 6 samples.

Results

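The genes described here mark T lymphocytes and natural killer (NK) cells and the activated or exhausted states of those cells. They are 40 named genes: the T cell receptor complex and its coreceptors, proximal signalling and adhesion proteins, costimulatory and checkpoint receptors, cytotoxic effectors with their transcription factors, NK receptors and residency markers. Each was found by its symbol in the authors' comparison table and joined by Ensembl identifier to the count table, and all 40 were found among 30821 genes with a count. The series holds 6 bulk RNA libraries of hippocampal tissue, each from a male C57BL/6J mouse. In the 3 TAF15 OE mice an adeno-associated virus carrying TAF15, an RNA-binding protein of the FET family, had been injected on both sides into CA1; its label names the CaMKIIα promoter, which drives expression in excitatory neurons. In the 3 Control mice a control virus had been injected in the same way; for it the labels name no promoter. All 6 had surgery at 8 weeks of age and carry the label 31 days, and the strain is the same throughout, so viral injection is shared by both groups. No uninjected mice were analysed here, and the title of the study concerns impaired memory and reduced Npas4 transcription.

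A T cell recognises antigen through its receptor chains, which signal through the CD3 and zeta chains to the kinases Lck and Zap70 and the adaptor Lat. CD4 and CD8 are coreceptors for MHC class II and class I, and CD28 and ICOS costimulate. CTLA-4, PD-1, LAG-3, TIGIT and TIM-3 (gene Havcr2) restrain activated cells, and together with the factor Tox they mark chronically stimulated, or exhausted, T cells. Killer cells carry granzymes and perforin, and tissue-resident T cells carry CD103 (gene Itgae) and CD69. The healthy brain holds few lymphocytes, and some of these genes are known from other brain cells in mice: Lag3 from microglia and neurons, Havcr2 from microglia, Tox from developing neurons and Eomes from neuronal progenitors.

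Libraries held between 14965464 and 16067000 counts, so that 1 count equalled 0.0607 to 0.0679 CPM (counts scaled to a common library total). Taf15 itself stood at 254 ± 16.1 CPM in TAF15 OE and 59.4 ± 5.64 CPM in Control (levels with ± are means and SD over n = 3 mice a group), a 4.27-fold difference, and the vector's transcript cannot be parted from the mouse's own. The hippocampal excitatory neuron gene Camk2a was high in both groups, at 3474 ± 445 CPM in TAF15 OE and 5090 ± 643 CPM in Control. Control 1 and TAF15 OE 1 stood apart from the other libraries on the second principal component (21.7% of variance). Their choroid plexus markers, 8 of 8 detected, summed to 1554 CPM in TAF15 OE 1 and 147 CPM in Control 1, against 4346 to 5054 CPM in the other libraries. Values without these libraries are therefore given beside the results.

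Most of the T cell genes were higher in TAF15 OE, and none was called lower. Of the 28 members with enough counts to be tested, 18 rose in TAF15 OE and 0 fell (edgeR's quasi-likelihood test, Benjamini-Hochberg adjusted p below 0.05 over 16758 genes, as for every adjusted p below unless another tool is named). Over all tested genes 9.32% were called higher and 5.95% lower (1562 and 997 genes; 1838 and 716 when libraries were scaled by their total counts alone, with 19 members higher). The tested members had a median log2 fold change of 2.07, against 0.026 over all tested genes. Of the 28, only 7 reached the filter's level of 0.656 CPM in every Control library, with counts scaled by library total alone as in the filter. Trac fell just short in Control 1 by that scaling, but stood at 0.679, 0.995 and 0.666 in Control 1, 2 and 3 in the CPM used elsewhere. The other 21 thus entered the test at least partly through the TAF15 OE libraries. Of those 7, Cd4, Lag3, Havcr2 and Ms4a4b rose and Lck, Zap70 and Tox did not pass the test; their median log2 fold change was 1.19, against 0.0091 over the 15387 genes that reached this level, of which 9.23% rose. With no filter all 40 members were tested and 28 rose, where 6.52% of 30821 genes were called higher and 5.09% lower, and 0 members fell. That fit gave some widely varying genes a smaller SE, 0.41 against 0.78 for Itgae and 0.42 against 0.68 for Trbc2. This was not so for all, with 0.29 against 0.27 for Lag3. Calls made only with no filter are therefore weaker than those of the filtered fit. DESeq2 called 20 of 27 members higher, where 8.81% of genes were, and 0 lower, where 7.88% were. In the authors' deposited table, 22 of the 30 members with an adjusted p were higher at a value under 0.05 and 0 were lower. The share of all genes at such a value in that table is not given here, so this count has no background beside it.

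In 23 of the 28 tested members every TAF15 OE library lay above every Control library. This held for 19.1% of all tested genes. However, 21 of the 28 entered the test at least partly through the TAF15 OE libraries, which favours such separation. Of the 7 that reached the filter's level in every Control library, Cd4, Lag3, Havcr2 and Ms4a4b lay apart, and Lck, Zap70 and Tox overlapped. Separation held as well for 4 of the 12 untested members, and no share over untested genes is given here. In the other 13 of the 40 the groups overlapped. TAF15 OE 1 was the highest of the 6 libraries in 24 of the 28 tested members, against 19.7% of all tested genes. It was the highest in all 12 untested members as well, where again no share over untested genes is given. Without TAF15 OE 1, 17 of 28 members rose, and the median log2 fold change of the 28 members of the full comparison was 1.55 (7.56% of all genes were then called higher and 7.06% lower). When Control 1 was left out as well, leaving a comparison of 4 libraries, 14 of 28 rose, with a median of 1.43 (7.05% of all genes called higher and 5.99% lower). In none of these was a member called lower. The tissue was measured in bulk, so more cells of a type and more RNA per cell cannot be told apart.

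**Figure D1:**
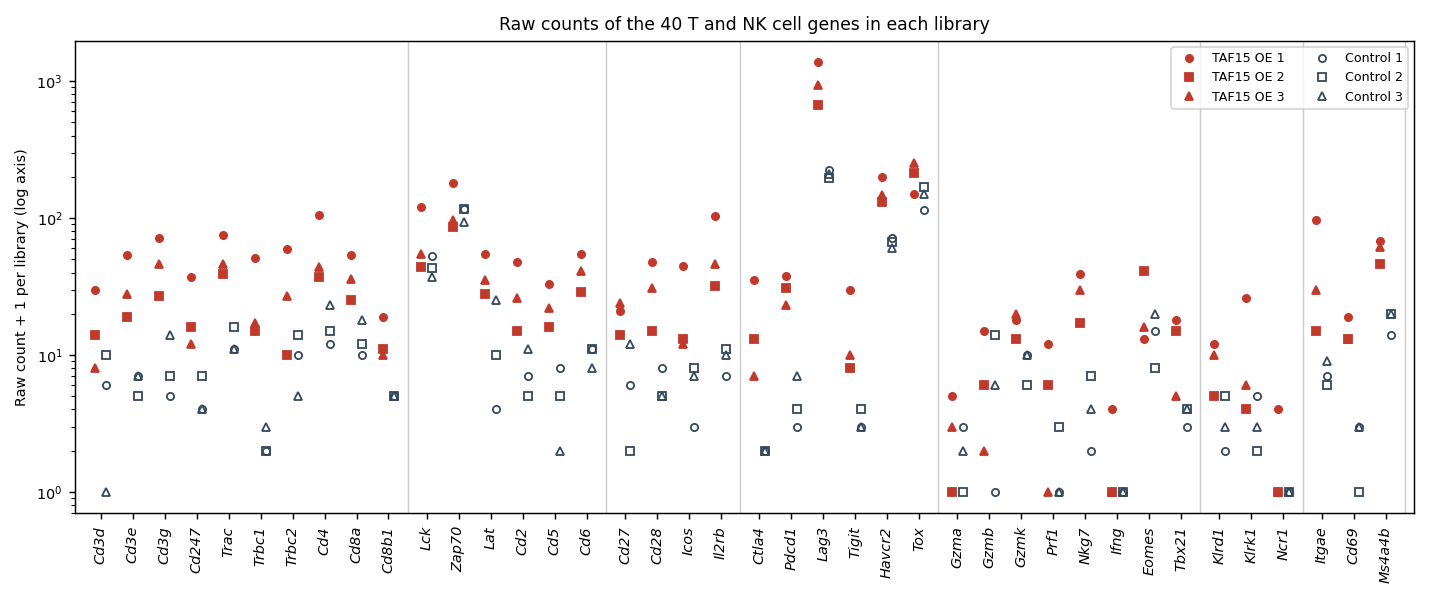
Raw counts plus 1 (log axis) of the 40 genes in each of the 6 libraries, in role groups parted by grey lines; filled red symbols are TAF15 OE mice and open dark symbols Control mice, with the symbol shape giving the replicate number. Lag3 holds the most counts in every library, and all receptor genes but Cd4 hold fewer than 20 counts in every Control library.

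Genes of the receptor complex were mostly higher. Of its 10 genes 8 were tested and 7 rose: Cd3e, Cd3g, Cd247, Trac, Trbc1, Cd4 and Cd8a. Cd3g, the gamma chain (ENSMUSG00000002033; GRCm38 chromosome 9, 44969572 to 44980431, minus strand) was detected throughout, with 71, 26 and 45 counts in TAF15 OE 1, 2 and 3 and 4, 6 and 13 in Control 1, 2 and 3. Every TAF15 OE library lay above the highest Control library, and TAF15 OE 1 was the highest. Its level was 2.99 ± 1.43 CPM in TAF15 OE and 0.512 ± 0.313 CPM in Control, and its log2 fold change was 2.53 (SE 0.49; adjusted p = 0.00728). It was 3.13 without Control 3 and 1.78 in the comparison of 4 libraries, called each time. Cd3e, the epsilon chain (ENSMUSG00000032093), had 53, 18 and 27 counts in TAF15 OE 1, 2 and 3 and 6, 4 and 6 in Control 1, 2 and 3 (log2 fold change 2.51, SE 0.49, adjusted p = 0.00734). Cd3d, the delta chain (ENSMUSG00000032094), had 29, 13 and 7 counts in TAF15 OE and 5, 9 and 0 in Control. Its groups overlapped, and it was too low to be tested under the filter. With no filter its log2 fold change was 1.69 (SE 0.56, adjusted p = 0.0272). In the authors' table Cd3d was not below 0.05 (log2 fold change 1.72, adjusted p = 0.198).

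These CD3 genes are neighbours on chromosome 9: 1354 bases part Cd3g from Cd3d and 11400 part Cd3d from Cd3e, with no other annotated gene between (GENCODE M21). Their promoter windows are shown because the genes share this locus and were compared here as a unit of one complex. Each runs from 250 bases before to 50 bases after the RefSeq start (GRCm38.p6), 5′ to 3′ on the gene's strand. Capitals mark matches on either strand to AGGAAG (a core bound by ETS factors), TGTGGT (RUNX factors) and CAGCTG (an E-box), none of which contains another.
Cd3g, chr9:44980382-44980681, minus strand: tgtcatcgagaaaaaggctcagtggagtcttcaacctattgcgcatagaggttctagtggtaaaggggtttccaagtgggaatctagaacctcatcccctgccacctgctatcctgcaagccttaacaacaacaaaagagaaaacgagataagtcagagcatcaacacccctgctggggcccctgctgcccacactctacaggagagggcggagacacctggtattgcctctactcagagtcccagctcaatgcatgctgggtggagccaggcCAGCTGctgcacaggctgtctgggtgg
Cd3d, chr9:44981536-44981835, plus strand: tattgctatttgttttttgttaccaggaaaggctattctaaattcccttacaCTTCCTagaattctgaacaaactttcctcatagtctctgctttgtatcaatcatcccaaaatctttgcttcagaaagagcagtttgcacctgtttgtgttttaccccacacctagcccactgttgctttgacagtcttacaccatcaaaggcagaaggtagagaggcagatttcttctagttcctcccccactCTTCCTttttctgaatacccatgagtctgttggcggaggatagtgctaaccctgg
Cd3e, chr9:45009562-45009861, minus strand: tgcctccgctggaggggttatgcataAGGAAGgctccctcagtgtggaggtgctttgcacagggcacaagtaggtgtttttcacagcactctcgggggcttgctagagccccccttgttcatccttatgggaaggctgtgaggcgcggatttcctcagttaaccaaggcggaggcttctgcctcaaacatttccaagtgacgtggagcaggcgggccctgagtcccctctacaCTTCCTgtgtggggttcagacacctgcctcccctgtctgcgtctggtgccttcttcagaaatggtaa

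The Cd3d and Cd3e windows each held 2 ETS matches, and the Cd3g window held the E-box alone. RefSeq windows were found for 25 of the 40 members (29 windows). The ETS letters occurred in 15 of these 29 windows, against 35.4% of all 32851 windows of the same length. RUNX letters occurred in 12 of 29, against 16.8% of all windows, and the E-box in 6 of 29, against 16.3%. The T-box letters GGTGTG, which are not marked, occurred in 6 of 29 windows, against 19.0% of all. These are letter matches and not measured binding, and some members have several windows.

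Cd247 encodes the zeta chain that carries the signal of the receptor. It had 36, 15 and 11 counts in TAF15 OE 1, 2 and 3 and 3, 6 and 3 in Control 1, 2 and 3 (log2 fold change 2.26, SE 0.59, adjusted p = 0.0248). The groups did not overlap, but its call was lost without any 1 library other than TAF15 OE 3. The adjusted p was then 0.0905 without TAF15 OE 1, 0.0514 without TAF15 OE 2, and 0.0878, 0.0565 and 0.0899 without Control 1, 2 and 3. Its log2 fold change was 1.57 without TAF15 OE 1 and 1.41 in the comparison of 4 libraries, where its adjusted p was 0.154. The end of Cd247 overlaps Pou2f1 on the opposite strand, and without a stated strand setting reads of such pairs cannot be told apart.

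Among the antigen-binding chains, Trac (the constant region of the alpha chain, ENSMUSG00000076928) had 74, 38 and 45 counts in TAF15 OE and 10, 15 and 10 in Control. The groups were well apart, and its level was 3.32 ± 1.23 CPM in TAF15 OE and 0.780 ± 0.186 CPM in Control (log2 fold change 2.08, SE 0.36, adjusted p = 0.00381). Trbc1, a constant region of the beta chain (ENSMUSG00000076490), had 50, 14 and 16 counts in TAF15 OE and 1, 1 and 2 in Control. Its log2 fold change was 4.13 (SE 0.75, adjusted p = 0.00544), 3.27 without TAF15 OE 1 and 3.12 in the comparison of 4 libraries, called each time. Trbc2, the other constant region, had 58, 9 and 26 counts in TAF15 OE and 9, 13 and 4 in Control. The groups overlapped, and it did not pass the test (log2 fold change 1.74, SE 0.68, adjusted p = 0.129; 0.88 without TAF15 OE 1), but was called without TAF15 OE 2 (adjusted p = 0.0360) and with no filter (9.86e-04). Trbc1 and Trbc2 are near-identical in sequence and their reads may have been split between them by the authors' counting, so that each value is uncertain.

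The coreceptor genes Cd4 and Cd8a were both higher. Cd4 (ENSMUSG00000023274) had 105, 36 and 43 counts in TAF15 OE 1, 2 and 3 and 11, 14 and 22 in Control 1, 2 and 3 (log2 fold change 1.89, SE 0.46, adjusted p = 0.0248). It was not called without Control 1 (adjusted p = 0.0977), without Control 2 (0.105) or in the comparison of 4 libraries (log2 fold change 1.03, adjusted p = 0.0804). Without TAF15 OE 1 its log2 fold change was 1.22 and still called (adjusted p = 0.0401). Cd8a (ENSMUSG00000053977) had 53, 24 and 35 counts in TAF15 OE and 9, 11 and 17 in Control (log2 fold change 1.51, SE 0.39, adjusted p = 0.0238), and was no longer called without TAF15 OE 1 (adjusted p = 0.0767), without Control 1 (0.0854), without Control 2 (0.0885) or in the comparison of 4 libraries (0.147). Cd8b1, the CD8 beta chain, had 18, 10 and 9 counts in TAF15 OE and 4, 4 and 4 in Control, too few for the filter although the groups did not overlap. With no filter its log2 fold change was 1.49 (SE 0.62, adjusted p = 0.113).

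Scaled for gene length, the balance of the coreceptors overlapped between the groups. The ratio of Cd4 to Cd8a in FPKM (fragments per unit of gene length and of library size, as the authors deposited them) was 1.79, 1.35 and 1.11 in TAF15 OE 1, 2 and 3 and 1.10, 1.15 and 1.17 in Control 1, 2 and 3. TAF15 OE 1 held the highest ratio, and TAF15 OE 3 lay within the Control range. In absolute terms both were low, at 0.976 ± 0.599 FPKM for Cd4 and 0.657 ± 0.251 FPKM for Cd8a in TAF15 OE, against 0.256 ± 0.0929 FPKM for Cd4 and 0.223 ± 0.0754 FPKM for Cd8a in Control.

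Proximal signalling and adhesion genes were mixed. Of 6 tested, Cd2, Cd5 and Cd6 rose, and Lck, Zap70 and Lat did not pass the test. Cd6, a surface receptor that tunes T cell activation (ENSMUSG00000024670), had 54, 28 and 40 counts in TAF15 OE and 10, 10 and 7 in Control, with no overlap (log2 fold change 2.08, SE 0.36, adjusted p = 0.00419). Cd5, which lies near it on chromosome 19 and is a negative regulator of receptor signalling, had 32, 15 and 21 counts in TAF15 OE and 7, 4 and 1 in Control (log2 fold change 2.39, SE 0.55, adjusted p = 0.0152). Cd5 was not called without Control 2 (adjusted p = 0.0637) or without Control 3 (0.0548), and its log2 fold change was 3.05 without Control 1. Cd2, an adhesion receptor that binds Cd48 in mice, had 47, 14 and 25 counts in TAF15 OE and 6, 4 and 10 in Control (log2 fold change 2.00, SE 0.52, adjusted p = 0.0250). It was not called without TAF15 OE 1 (log2 fold change 1.41, adjusted p = 0.0827), without Control 1 (0.0854), without Control 2 (0.103) or in the comparison of 4 libraries (1.35, 0.123).

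The kinases Lck and Zap70 held more counts in Control than the other genes of this role. Zap70 had 179, 85 and 96 counts in TAF15 OE 1, 2 and 3 and 115, 115 and 93 in Control 1, 2 and 3, so that only TAF15 OE 1 lay above the Control range. Its log2 fold change was 0.079 (SE 0.27, 95% interval -0.45 to 0.61 by 1.96 SE to either side, adjusted p = 0.883). It turned to -0.36 without TAF15 OE 1, -0.021 without Control 3 and -0.30 in the comparison of 4 libraries. Lck had 120, 43 and 54 counts in TAF15 OE and 52, 42 and 36 in Control (log2 fold change 0.66, SE 0.38, adjusted p = 0.287), and 0.048 without TAF15 OE 1. Lat had 54, 27 and 34 counts in TAF15 OE and 3, 9 and 24 in Control (log2 fold change 1.59, SE 0.56, adjusted p = 0.0946). The groups of Lat did not overlap but Control ranged widely; it was called without Control 3 (log2 fold change 2.57, adjusted p = 0.0215), by DESeq2 (adjusted p = 0.0452) and with no filter (adjusted p = 7.30e-04). It was 1.23 without TAF15 OE 1, 1.14 without Control 1 and 0.78 in the comparison of 4 libraries, called in none of these (adjusted p = 0.204, 0.170 and 0.284).

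**Figure D2:**
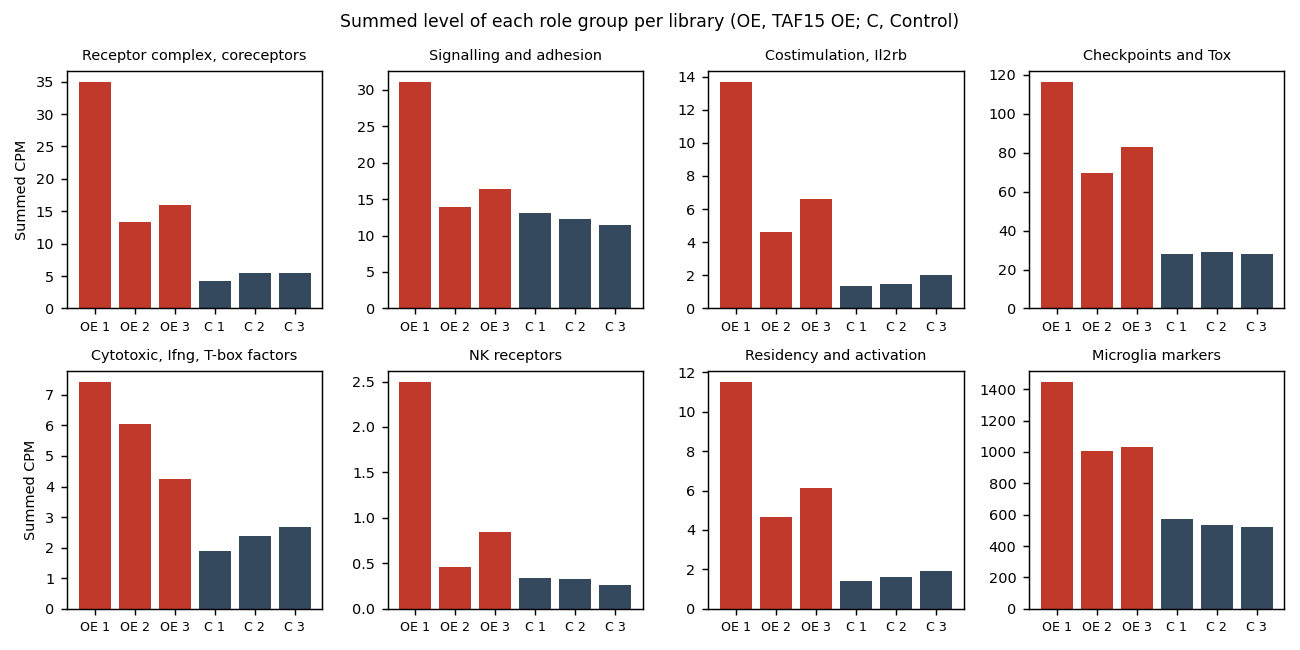
Summed CPM of the genes of each role group in each library (bars from 0, red for TAF15 OE mice 1 to 3 and dark for Control mice 1 to 3), with 14 microglia markers for comparison; the vertical scale differs by panel. The receptor group summed to 13.3 to 35.0 CPM in TAF15 OE and 4.21 to 5.50 CPM in Control, whereas the NK receptor group stayed below 1 CPM in all libraries but TAF15 OE 1.

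Costimulatory and cytokine receptors were higher in every TAF15 OE library. All 4 were tested, and Cd28 and Il2rb rose. Il2rb, the beta chain of the receptors for interleukin-2 and interleukin-15 (ENSMUSG00000068227), had 103, 31 and 45 counts in TAF15 OE and 6, 10 and 9 in Control. The lowest TAF15 OE library held over 3 times the counts of the highest Control library. The difference of Il2rb was 2.74 on the log2 scale (SE 0.50, adjusted p = 0.00642), 2.06 without TAF15 OE 1 and 1.88 in the comparison of 4 libraries, called each time. Cd28, the main costimulatory receptor, had 47, 14 and 30 counts in TAF15 OE and 7, 4 and 4 in Control (log2 fold change 2.49, SE 0.52, adjusted p = 0.00954). Icos, the inducible costimulator, had 44, 12 and 11 counts in TAF15 OE and 2, 7 and 6 in Control (log2 fold change 2.06, SE 0.68, adjusted p = 0.0710; 1.08 without TAF15 OE 1 and 0.71 in the comparison of 4 libraries). It was called without TAF15 OE 3 (adjusted p = 0.0427), by DESeq2 (0.0445) and with no filter (0.00112). Cd27, a receptor of the TNF family on naive and memory T cells, had 20, 13 and 23 counts in TAF15 OE and 5, 1 and 11 in Control (log2 fold change 1.62, SE 0.57, adjusted p = 0.0791; 2.50 and called without Control 3, adjusted p = 0.0444). Cd27 lies on the opposite strand within Vamp1, a synaptic vesicle gene with a mean of 1827 counts, so that its counts are uncertain.

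Checkpoint receptors held the member with the highest level and some of the larger changes. Of the 6 genes in this group 4 were tested; Pdcd1, Lag3 and Havcr2 rose and Tox did not pass the test. Lag3, an inhibitory receptor for MHC class II (ENSMUSG00000030124; chromosome 6, 124904361 to 124911705, minus strand) was abundant, with 1373, 670 and 932 counts in TAF15 OE 1, 2 and 3 and 224, 196 and 207 in Control 1, 2 and 3. Its level was 62.8 ± 22.5 CPM in TAF15 OE and 14.0 ± 1.12 CPM in Control, with the groups far apart. The log2 fold change was 2.16 (SE 0.27, adjusted p = 0.00585), and under the alternatives run it lay between 1.82 and 2.35 and was called each time. Havcr2 (TIM-3, ENSMUSG00000020399) had 199, 129 and 146 counts in TAF15 OE and 71, 66 and 59 in Control. Its log2 fold change of 1.19 (SE 0.20; adjusted p = 0.00338) was called under every alternative run, between 0.96 and 1.29.

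Per gene length Lag3 stood far above the receptor genes. It stood at 30.1 ± 10.5 FPKM in TAF15 OE and 6.52 ± 0.400 FPKM in Control, the highest of the 40 members in both groups. Cd3e stood at 0.513 ± 0.282 FPKM in TAF15 OE and 0.0859 ± 0.0182 FPKM in Control. The ratio of Lag3 to Cd3e in FPKM was 50.1, 72.0 and 66.8 in TAF15 OE 1, 2 and 3 and 72.2, 94.8 and 66.7 in Control 1, 2 and 3, with overlap between the groups. Lag3 and Cd4 lie 16139 bases apart on the same strand, with no annotated gene between. Microglia markers were higher too: 13 of 14 rose, where 9.32% of all tested genes did. Their median log2 fold change was 0.96, against 2.16 for Lag3 and 1.19 for Havcr2. Their sum was 1005 to 1445 CPM in TAF15 OE and 521 to 572 CPM in Control, and none of them was at 0. The part of microglia in the values of Lag3 and Havcr2 was not tested.

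Pdcd1 encodes PD-1 (ENSMUSG00000026285; chromosome 1, 94038305 to 94052553, minus strand). It held 37, 30 and 22 counts in TAF15 OE and 2, 3 and 6 in Control. All 3 TAF15 OE libraries lay well above Control. The log2 fold change was 2.90 (SE 0.47, adjusted p = 0.00296), 2.69 without TAF15 OE 1 (adjusted p = 0.00549). Its promoter window is shown as that of the checkpoint receptor with the largest tested change, and its capitals mark 2 ETS matches and nothing else.
Pdcd1, chr1:94052504-94052803, minus strand: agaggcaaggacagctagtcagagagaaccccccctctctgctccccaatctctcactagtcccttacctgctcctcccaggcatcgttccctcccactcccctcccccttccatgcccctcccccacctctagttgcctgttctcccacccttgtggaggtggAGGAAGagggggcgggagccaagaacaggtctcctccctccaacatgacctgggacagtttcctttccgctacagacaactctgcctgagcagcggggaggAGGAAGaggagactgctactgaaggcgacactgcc

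Ctla4 and Tigit were too low for the filter although their groups did not overlap. Ctla4, which competes with CD28 for its ligands, had 34, 12 and 6 counts in TAF15 OE and 1, 1 and 1 in Control, a ratio of summed counts of 16.9 (exact 95% counting interval 5.49 to 84.8, which covers counting error only). Tigit, an inhibitory receptor of T and NK cells, had 29, 7 and 9 counts in TAF15 OE and 2, 3 and 2 in Control. With no filter both were called, Ctla4 with a log2 difference of 3.87 (SE 0.74; adjusted p = 6.45e-06) and Tigit at 2.52 (SE 0.66, adjusted p = 0.00209). Ctla4 lies in a row with Cd28 and Icos on chromosome 1, each within 150000 bases of the next.

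Tox, a nuclear factor of exhausted T cells that neurons also express, had 150, 213 and 250 counts in TAF15 OE 1, 2 and 3 and 114, 168 and 148 in Control 1, 2 and 3. The groups overlapped, and here TAF15 OE 1 was the lowest of its group. The log2 fold change was 0.43 (SE 0.19, 95% interval 0.051 to 0.81 by 1.96 SE to either side, adjusted p = 0.166). It was 0.58 without TAF15 OE 1, when Tox was called (adjusted p = 0.0338).

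**Figure D3:**
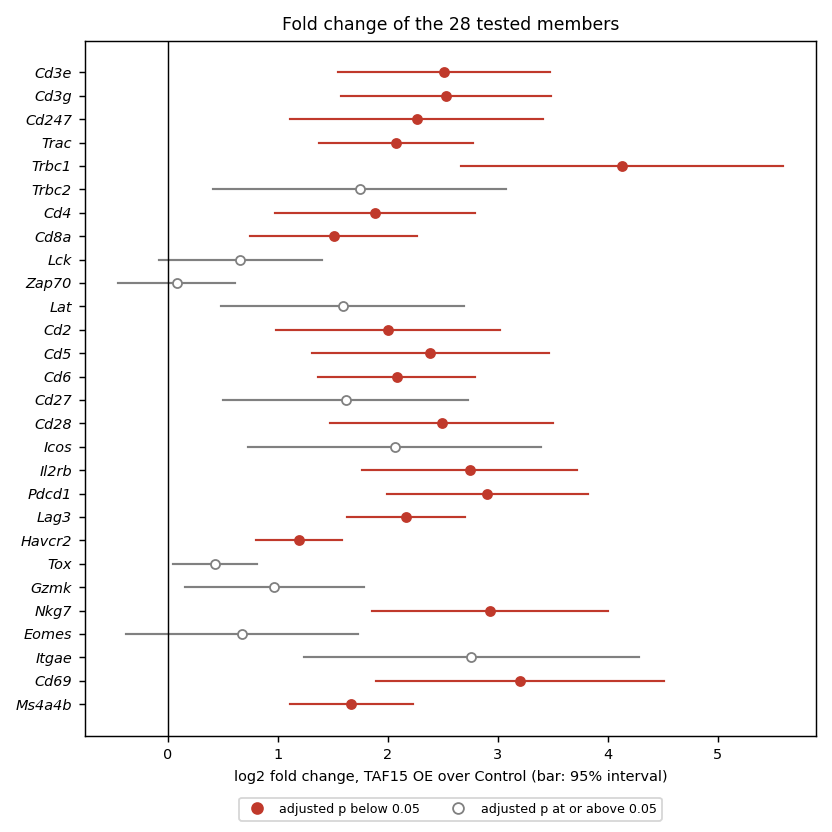
Log2 fold change of the 28 tested members, TAF15 OE over Control, by role from the receptor complex at the top to residency genes at the bottom. Bars are 95% intervals of 1.96 SE to either side, narrower than the quasi-likelihood test implies. Filled red points have an adjusted p below 0.05. Trbc1 has the largest change at 4.13, and Zap70, Tox, Lck and Eomes lie nearest 0.

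Most cytotoxic genes held few counts. Of 8 genes in this group 3 were tested, and of these Nkg7 rose. Nkg7, a granule protein of cytotoxic T and NK cells (ENSMUSG00000004612), had 38, 16 and 29 counts in TAF15 OE and 1, 6 and 3 in Control. The groups were well apart, and its log2 fold change was 2.93 (SE 0.55, adjusted p = 0.00566), 3.62 without Control 2 and 2.18 in the comparison of 4 libraries, called each time. Gzmk, granzyme K, had 17, 12 and 19 counts in TAF15 OE and 9, 5 and 9 in Control (log2 fold change 0.97, SE 0.41, adjusted p = 0.145). Its groups did not overlap by counts, but the test was not passed under any alternative run.

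The classical killing genes held few counts in both groups. Gzmb, granzyme B, had 14, 5 and 1 counts in TAF15 OE and 0, 13 and 5 in Control, so that the highest Control library lay just below the highest TAF15 OE library. Gzma, granzyme A, had 4, 0 and 2 counts in TAF15 OE and 2, 0 and 1 in Control, a ratio of summed counts of 1.96 (exact 95% counting interval 0.418 to 12.1). Prf1, the pore-forming protein perforin, had 11, 5 and 0 counts in TAF15 OE and 0, 2 and 0 in Control, with TAF15 OE 3 at 0. Its ratio of summed counts was 7.82 (1.84 to 70.1). Both counting intervals cover counting error only and not the spread between mice. Granzymes A, B and K and perforin together held 46, 22 and 22 counts in TAF15 OE 1, 2 and 3 and 11, 20 and 15 in Control 1, 2 and 3. In comparison, the CD3 chains Cd3d, Cd3e and Cd3g with Cd247 held 189, 72 and 90 counts in TAF15 OE and 18, 25 and 22 in Control. None of the 4 killing genes was called: with no filter Gzma, Gzmb, Gzmk and Prf1 had adjusted p of 0.113 to 0.983.

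The windows of Nkg7 and Prf1 are shown because Nkg7 was the called gene of this role and Prf1 is a classical killing gene that was too low to be tested under the filter. Each holds a RUNX match, and Nkg7 has 1 ETS match where Prf1 has 4, with an E-box in Prf1 as well.
Nkg7, chr7:43436888-43437187, plus strand: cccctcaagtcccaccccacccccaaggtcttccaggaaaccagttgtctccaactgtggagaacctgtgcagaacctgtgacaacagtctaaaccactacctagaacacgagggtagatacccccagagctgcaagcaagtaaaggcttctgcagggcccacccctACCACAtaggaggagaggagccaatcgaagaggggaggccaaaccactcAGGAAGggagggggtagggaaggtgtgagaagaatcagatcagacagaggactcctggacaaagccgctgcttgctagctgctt
Prf1, chr10:61297586-61297885, plus strand: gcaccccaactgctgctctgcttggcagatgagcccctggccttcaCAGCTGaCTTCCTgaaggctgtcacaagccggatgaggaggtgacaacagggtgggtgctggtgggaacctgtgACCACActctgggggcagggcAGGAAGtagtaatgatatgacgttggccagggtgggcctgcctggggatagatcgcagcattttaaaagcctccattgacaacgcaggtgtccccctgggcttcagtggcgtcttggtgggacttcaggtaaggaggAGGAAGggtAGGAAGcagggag

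Ifng, the gene of interferon gamma, had 3, 0 and 0 counts in TAF15 OE and 0 in every Control library, which allows no comparison. Of the T-box factors that drive cytotoxic programmes, Tbx21 (T-bet) had 17, 14 and 4 counts in TAF15 OE and 2, 3 and 3 in Control, without overlap but below the filter. With no filter its log2 fold change was 1.99 (SE 0.69, adjusted p = 0.0347). Eomes had 12, 40 and 15 counts in TAF15 OE and 14, 7 and 19 in Control. TAF15 OE 2 alone was high, and the log2 difference of 0.67 (SE 0.54; adjusted p = 0.457) turned to -0.10 without that library.

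NK receptors were too low to be tested. Klrk1 (NKG2D, an activating receptor that some T cells carry) had 25, 3 and 5 counts in TAF15 OE 1, 2 and 3 and 4, 1 and 2 in Control 1, 2 and 3. Only TAF15 OE 1 was well above the Control range. With no filter its log2 fold change was 2.08 (SE 0.72, adjusted p = 0.0345). Klrd1 (CD94) had 11, 4 and 9 counts in TAF15 OE and 1, 4 and 2 in Control, with overlap (no filter, log2 fold change 1.62, SE 0.78, adjusted p = 0.210). Ncr1 (NKp46), the receptor most restricted to NK cells, had 3, 0 and 0 counts in TAF15 OE and 0 in every Control library. Klrd1 and Klrk1 belong to a family of similar genes, so that their low counts are uncertain.

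Among residency and activation genes, Cd69 and Ms4a4b rose. Ms4a4b, a membrane protein of T cells (ENSMUSG00000056290), had 67, 45 and 60 counts in TAF15 OE and 13, 19 and 19 in Control. All 3 TAF15 OE libraries were close to each other and above Control, and its log2 fold change was 1.67 (SE 0.28, adjusted p = 0.00372), called under every alternative between 1.36 and 1.78. It has close relatives in its gene cluster, so that some of its reads may be theirs. Cd69, an early activation marker that retains lymphocytes in tissue, had 18, 12 and 12 counts in TAF15 OE and 2, 0 and 2 in Control (log2 fold change 3.20, SE 0.67, adjusted p = 0.00971). Itgae (CD103, also carried by dendritic cells) had 95, 14 and 29 counts in TAF15 OE and 6, 5 and 8 in Control. The groups did not overlap, but TAF15 OE 1 held far more than the other libraries, and the test was narrowly missed (log2 fold change 2.76, SE 0.78, adjusted p = 0.0526). It was called without TAF15 OE 1 (log2 fold change 1.62, adjusted p = 0.0418), without TAF15 OE 2 (3.17, 0.0130), with total counts (adjusted p = 0.0470) and by DESeq2 (6.57e-04), and with no filter (6.60e-09), and not in the comparison of 4 libraries (1.60, 0.0629). Haspin lies on the opposite strand within Itgae, with a mean of 9.33 counts.

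**Figure D4:**
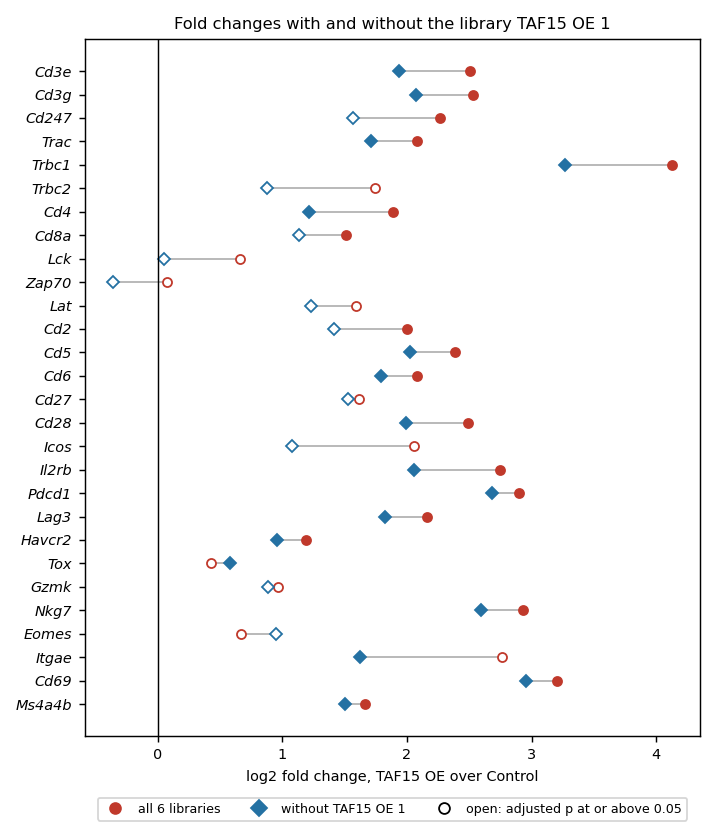
Log2 fold change of the 28 tested members with all 6 libraries (red circles) and without TAF15 OE 1 (blue diamonds); filled symbols have an adjusted p below 0.05. All members but Tox and Eomes lie nearer 0 or below it without that library, and Cd2, Cd247 and Cd8a lose their calls while Itgae and Tox gain them.

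Other genes of T and NK cells were counted from a separate list. Of 58 genes found, 39 were tested and 19 rose, with 0 called lower and a median log2 fold change of 1.32. Over all tested genes 9.32% were called higher and 5.95% lower. Some of the called genes of this list lay below the filter's level in every Control library. Those entered the test through the TAF15 OE libraries, which favours a higher call. Gimap3, Tcf7 and Prdm1 were among those with the smallest p. Gimap3, a GTPase of lymphocytes, had 157, 68 and 109 counts in TAF15 OE and 10, 23 and 16 in Control (log2 fold change 2.68, SE 0.37, adjusted p = 0.00172). Tcf7, a factor of naive and stem-like T cells, rose by 1.13 (SE 0.18, adjusted p = 0.00313). Prdm1 (Blimp-1), a factor of effector lymphocytes and plasma cells, rose by 2.27 (SE 0.39, adjusted p = 0.00400).

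Some genes of that list known from particular T cell states did not pass the test or were not tested. They were picked with their values in view. Foxp3, the factor of regulatory T cells, had 31, 18 and 17 counts in TAF15 OE and 12, 10 and 2 in Control (log2 fold change 1.37, SE 0.52, adjusted p = 0.103). Cxcr6, a receptor of tissue-resident T cells, had 62, 20 and 37 counts in TAF15 OE and 4, 6 and 19 in Control (log2 fold change 1.94, SE 0.58, adjusted p = 0.0528). Neither passed the test although their groups did not overlap. Ccr7, the lymph node homing receptor, had 66, 0 and 2 counts in TAF15 OE 1, 2 and 3 and 2, 0 and 1 in Control 1, 2 and 3. TAF15 OE 1 lay far above the other libraries, and Ccr7 did not pass the filter and was not tested.

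Ligands and attractants of these receptors were in part higher. Of 26 genes found, 20 were tested and 7 rose, with 0 lower and a median log2 fold change of 0.94. Among all tested genes, 9.32% were called higher and 5.95% lower. The 4 with the smallest p were Cd86, the ligand of CD28 and CTLA-4 (1.53, SE 0.20, adjusted p = 0.00111), Icosl, the ligand of ICOS (0.88, SE 0.14, adjusted p = 0.00244), Lgals3, a galectin (2.02, SE 0.31, adjusted p = 0.00337), and Cd48, the ligand of CD2 (1.95, SE 0.37, adjusted p = 0.00681). Cd274, which encodes the PD-1 ligand PD-L1 and was picked with its values in view, had 462, 149 and 292 counts in TAF15 OE and 89, 94 and 153 in Control. TAF15 OE 2 lay within the Control range, and Cd274 did not pass the test (log2 fold change 1.34, SE 0.47, adjusted p = 0.132).

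Markers of the other cells that could accompany lymphocytes also differed between the groups, and their part in the members' values was not tested. The counts of called markers below stand beside 9.32% called higher and 5.95% called lower over all tested genes. B and plasma cell markers summed to 79.2, 96.1 and 174 CPM in TAF15 OE 1, 2 and 3 and 32.1, 6.30 and 7.93 CPM in Control 1, 2 and 3, with Cd22, Cd79a, Mzb1 and Cd79b higher of 6 tested and no marker at 0 in all libraries (Ms4a1 was at 0 in Control 2 and 3). Their sum was highest in TAF15 OE 3, where that of the 40 members was highest in TAF15 OE 1. Taken singly, 5 of the 11 markers were highest in TAF15 OE 1. Of 9 tested markers of perivascular macrophages and monocytes Ly6c2 and Stab1 rose, with sums of 54.9 to 76.7 CPM in TAF15 OE and 37.9 to 45.2 CPM in Control. Of 6 tested dendritic cell markers Itgax, Siglech (also on microglia) and Batf3 rose. Without Itgax and Siglech the other 8 markers of that list summed to 34.5, 18.8 and 23.2 CPM in TAF15 OE 1, 2 and 3 and 23.2, 19.7 and 22.5 CPM in Control 1, 2 and 3, with overlap. Flt3 of the same list was below Control in every TAF15 OE library and did not pass the test (log2 fold change -0.44, SE 0.17, adjusted p = 0.1003). Among neutrophil and mast cell markers Csf3r, which mouse microglia also express, rose of 3 tested, while the neutrophil markers Ly6g and Retnlg held at most 3 counts in any library. Red blood cell markers summed to 5.19 to 6.62 CPM in TAF15 OE and 1.87 to 12.4 CPM in Control, with 0 of 3 called. Choroid plexus markers had 0 of 8 called, endothelial markers 4 of 8 higher (Pecam1, Slco1a4, Tek and Ly6c1), and neuronal markers 6 of 9 lower, led by Rbfox3, Neurod6, Slc17a7 and Camk2a.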

How the data were processed

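Whole numbers per Ensembl gene were deposited by the authors as raw counts, and FPKM values by the authors scale them by gene length and library total. The authors' comparison table repeats the counts (100% of values equal) and adds a normalised mean signal, a fold change as a ratio and as log2, and a p-value and adjusted p-value from a test that is not named; per the file headers these set TAF15 OE over Control. CASAVA, Bowtie2 2.2.3, HISAT2 2.1.0, TopHat2 and build GRCm38 are named in the submitters' processing notes; their roles, the counter, the annotation release and the strand setting are not stated in the labels or headers.

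Counts were tested in R 4.3.3 with edgeR 4.0.16 (filterByExpr with minimum count 10 and minimum total 15, TMM scaling, robust quasi-likelihood F-test, group as the only term). Adjusted p covers 16758 genes and was called below 0.05, and SE derives from the F statistic. A 95% interval of a log2 fold change reaches 1.96 SE to either side, which is narrower than the F-test implies. The fit was tested on simulated counts. DESeq2 1.42.0 was an alternative, and the others were other scalings, other filters, the replicate block and leaving out libraries. FPKM served only to compare levels between genes. Promoter sequences are RefSeq's. Positions of 36 of 40 members equalled GENCODE M21. No 2 libraries were duplicates (smallest chi-square per degree of freedom 5.15). The p-values of the main fit measure the spread between mice, and those with no filter did so less closely for some members. Every member was described; of each other list up to 4 called genes with the smallest p were named, apart from those marked as picked with their values in view and from items not reported here. The members and lists were chosen with earlier results of these data known. Figures were drawn with matplotlib 3.10.9.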

Additional observations from a re-analysis of the deposited data

How the results depend on the processing

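Of the 18 called members, Cd3e, Cd3g, Trac, Trbc1, Cd6, Cd28, Il2rb, Pdcd1, Lag3, Havcr2, Nkg7, Cd69 and Ms4a4b were called under every alternative that tested them with a result. All 18 were called with DESeq2's size factors, total counts, no filter and the replicate block. A mean of at least 1 CPM left 13 members called because Cd247, Cd5, Cd69, Nkg7 and Trbc1 were no longer tested, and DESeq2 gave Cd69 no adjusted p. With no filter 28 members, 33 other T and NK cell genes and 1568 lower genes over the transcriptome were called. With libraries left out 1 at a time, 13 to 21 members were called higher, and 11 to 17 other T and NK cell genes, 4 to 9 ligand and attractant genes, 877 to 1293 higher genes and 365 to 1208 lower genes overall. Without both Control 1 and TAF15 OE 1, 12 other T and NK cell genes rose. The 1 gene of that list called lower with no filter, with DESeq2, with the replicate block, without Control 2 and without both those libraries was Bcl11b, at 0 called lower otherwise; neurons express it too. Over the same 6 leave-one-out fits the log2 fold change of Zap70 ran from -0.36 to 0.25 and that of Eomes from -0.10 to 1.01. Signs turned for Zap70 without TAF15 OE 1 (-0.36), Control 3 (-0.021) or both Control 1 and TAF15 OE 1 (-0.30), and for Eomes without TAF15 OE 2 (-0.10); the cause was not tested.

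The replicate numbers do not pair the mice by the labels. Same-numbered libraries had correlations of deviations of 0.126, 0.0776 and 0.0871 for numbers 1, 2 and 3, each library correlating best with its own number. With the replicate block 20 members rose, Cd27 and Itgae being gained, and 24 other T and NK cell genes, 7 ligand and attractant genes, 1904 higher and 1387 lower genes were called. Most cytotoxic and NK genes held too few counts to be tested under the filter.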
